A study of Mus musculus with 4 samples.

Results

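Neutrophil progenitors that make the proteins of the azurophil granule were picked out of cultured mouse myeloid-derived suppressor cells (MDSCs), profiled by single-cell RNA sequencing in 4 libraries. The cells were chosen by their RNA for 4 azurophil-granule genes, Mpo, Elane, Prtn3 and Ctsg. Each cell was scaled to 10000 unique molecular identifiers (UMIs, which count captured RNA molecules), the natural logarithm of 1 plus the scaled count was averaged over the 4 genes, and the 10% of cells with the highest mean were taken. This gave 930 members among 9303 kept cells. The 4 genes therefore chose the cells, and every comparison of the members with other cells is a description with no test.

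The MDSCs were generated in vitro from mouse bone marrow with IL-6 and GM-CSF, each at 40 ng/mL, and live CD11b+ cells were sorted on day 4. Values by library are given for WT cells grown with isoproterenol (ISO, an adrenergic agonist, 10 µM) and for WT cells grown without it (named PBS here). WT+PBS and WT+ISO are 1 library each, so there are no replicates, no test was made, and the cells of a library are not replicates of its condition. Groups follow the sample titles, since the treatment field names isoproterenol for all 4 samples of the series. The number of animals behind a culture is not given in the sources used here. WT+PBS held 2210 kept cells with 24393687 UMIs, and WT+ISO held 2264 with 29400468. No cell barcode was shared between libraries. Values over all members or all remaining cells pool the 4 libraries, so they rest partly on cells that are not WT. The WT libraries gave 232 and 367 of the members. Levels are given per 1000000 UMIs (CPM), summed over the cells described, and a level with PBS or with ISO is that of the members of WT+PBS or WT+ISO. Intervals and limits given here are at the 95% level and hold for counting error alone, so variation from one culture or animal to the next is not in them.

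Azurophil granules are the first granules that a developing neutrophil fills. Their main proteins are myeloperoxidase, a heme enzyme that makes hypochlorous acid, and the serine proteases neutrophil elastase, proteinase 3 and cathepsin G, which are made as precursors in the endoplasmic reticulum and stored in active form. Transcription of these genes belongs to the promyelocyte stage and is known to depend on the factors C/EBPα, MYB, RUNX1 and PU.1. Later stages switch to the proteins of the specific granules, such as lactoferrin (Ltf), cathelicidin (Camp) and neutrophilic granule protein (Ngp), and the mature neutrophil carries granule proteins whose RNA it no longer makes.

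Of the 4 genes that define the members, Elane and Prtn3 lie next to each other on chromosome 10, and Mpo and Ctsg stand on chromosomes 11 and 14. The 250 bases before each gene's start are shown because these are the genes whose RNA the members share. They are RefSeq sequences of build GRCm38.p6, printed 5′ to 3′ on the strand of the gene, from chr11:87793534-87793783 (plus strand), chr10:79886062-79886311 (plus), chr10:79879417-79879666 (plus) and chr14:56102575-56102824 (minus).
Mpo: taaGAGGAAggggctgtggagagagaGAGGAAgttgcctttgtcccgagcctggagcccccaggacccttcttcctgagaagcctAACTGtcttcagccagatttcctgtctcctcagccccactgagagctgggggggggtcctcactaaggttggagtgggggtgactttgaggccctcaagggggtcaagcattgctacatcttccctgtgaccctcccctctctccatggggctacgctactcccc
Elane: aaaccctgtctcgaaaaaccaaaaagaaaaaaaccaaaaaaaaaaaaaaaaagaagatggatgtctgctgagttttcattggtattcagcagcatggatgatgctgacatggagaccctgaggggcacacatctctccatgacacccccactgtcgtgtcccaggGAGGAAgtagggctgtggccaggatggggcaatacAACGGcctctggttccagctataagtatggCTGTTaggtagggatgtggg
Prtn3: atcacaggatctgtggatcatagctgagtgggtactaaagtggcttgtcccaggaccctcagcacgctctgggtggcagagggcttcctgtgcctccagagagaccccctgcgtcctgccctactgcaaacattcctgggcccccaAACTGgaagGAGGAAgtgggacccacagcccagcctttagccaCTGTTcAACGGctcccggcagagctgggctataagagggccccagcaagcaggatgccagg
Ctsg: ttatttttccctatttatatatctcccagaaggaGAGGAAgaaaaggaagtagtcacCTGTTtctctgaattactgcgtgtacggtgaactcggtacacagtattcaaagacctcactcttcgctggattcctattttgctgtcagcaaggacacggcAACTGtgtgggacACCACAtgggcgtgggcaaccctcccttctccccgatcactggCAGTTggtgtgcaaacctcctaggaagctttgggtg
Capitals mark matches, on either strand, to 4 sets of letters that stand for binding motifs: AACNG for MYB, GAGGAA for ETS factors such as PU.1, TGTGGT for RUNX and TTGCNNAA for C/EBP. No match overlapped another. All 4 promoters held a match to the MYB letters, as did 74.2% of 32851 promoters of the same length, and all 4 held the ETS letters, found in 23.3% of promoters. The RUNX letters were found in Ctsg alone of the 4 and in 14.0% of all promoters, and the C/EBP letters in none of the 4 and in 9.56% of all. A match is a description of the letters and not a binding site, and letters that are missing here say nothing about the factor. The genes within 50 kb of the 4 did not all share their pattern. Plppr3, beside Prtn3, was at 52.0 CPM in the members against 5.40 in the remaining cells and Ptbp1, a splicing regulator, at 97.7 against 51.2, whereas Med16 (13.2 against 11.3 CPM), R3hdm4 (164 against 192) and Arid3a (40.3 against 43.3) were at similar levels in both, and Cfd, a complement protease gene beside Elane, had 7 UMIs in all members. Mcpt8, a further protease gene near Ctsg, had 196 UMIs in the members, at 8.78 against 0.453 CPM.

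The members made up 232 of 2210 cells in WT+PBS (10.5%, exact Clopper-Pearson interval 9.25 to 11.9%) and 367 of 2264 in WT+ISO (16.2%, 14.7 to 17.8%). The share was higher in WT+ISO. The intervals cover the counting of cells alone, and the difference between the conditions, with 1 library each, was not tested. As a log2 ratio of shares, ISO over PBS was 0.63 [0.39, 0.87], and among kept cells with at least 5000 UMIs it was 0.37 [0.13, 0.62]. Cells of other kinds also took unequal shares. The 10% of cells with the highest macrophage score (C1qa, C1qb, C1qc, Mrc1) made up 8.46% of WT+PBS and 2.96% of WT+ISO, and with those cells left out the ratio of members was 0.54. The highest 10% by monocyte score made up 7.56% of WT+PBS against 3.62% of WT+ISO, and the highest 10% by specific-granule score (Ltf, Camp, Ngp, Lcn2) 8.01% against 14.1%. Their part in the share of members was not tested.

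**Figure D1:**
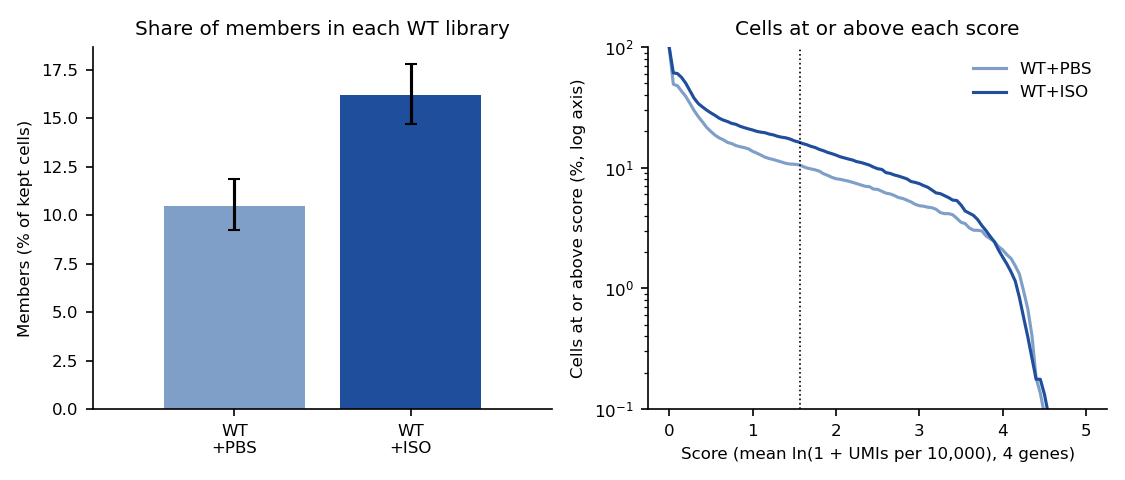
Left, share of members in each WT library (percent of kept cells, bars, with exact 95% intervals of counting error). Right, percent of each WT library's cells (log axis) at or above each score (x axis, mean natural log of 1 plus UMIs per 10000 over the 4 genes), with the lowest member score dotted at 1.57. WT+ISO has the taller bar, at 16.2% against 10.5%. The curves cross more than once at high scores, where few cells remain. At or above a score of 4 were 2.08% of WT+PBS and 1.81% of WT+ISO, and at or above 4.45 were 0.136% and 0.177%.

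The score ran without a gap from members to other cells. The lowest member score was 1.57, 52 members lay within 0.1 above it and 45 cells within 0.1 below it, while the median over all kept cells was 0.11 and the highest score 4.88. The 50 members just inside held 21.2 CPM of Mpo, 1352 of Elane, 1714 of Prtn3 and 191 of Ctsg, and the 50 cells just outside held 24.4, 1079, 1519 and 174 CPM in the same order. Elane and Prtn3 UMIs were present in all 930 members, Ctsg in 909 (97.7%) and Mpo in 698 (75.1%), and 690 members (74.2%) had a UMI of each gene. The members were RNA-rich cells, with a median of 23454 UMIs with PBS and 24695 with ISO, against 6894 and 8364 in the remaining cells of those libraries. They held 23.0% and 31.7% of their library's UMIs. With each cell thinned to 5000 UMIs, which left out 14 members, Mpo was found in 59.7% of members, Elane in 99.7%, Prtn3 in 100% and Ctsg in 87.7%. Of 924 cells with a high macrophage score that were not members, cells that should lack these genes, 869 reached that depth, and the shares among them were 3.11%, 11.5%, 14.4% and 2.76%. Unthinned, over all 924 at a median of 13145 UMIs, the shares were 7.79%, 25%, 31.1% and 7.68%.

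Of 7 further genes listed as markers of these cells, Ms4a3, Cst7, Fcnb, Nkg7, Cebpe and Gfi1 were higher in the members than in the remaining cells, and Ctsc was lower. Cebpe is also a gene of later granulocytes and was lower in the members of highest score than in those of lowest score (303 against 346 CPM). Ms4a3, a membrane protein of granulocyte and monocyte progenitors, was at 1655 CPM with PBS and 1886 with ISO, and at 156 CPM in the remaining cells (log2 ratio 3.47). Gfi1, a repressor required for neutrophil development, was at 57.3 CPM with PBS and 58.1 with ISO, and at 4.51 in the remaining cells (3.63). Both genes were higher in the members in both WT libraries. Ctsc, the protease that activates the granule proteases, was at 142 CPM in the members and 528 in the remaining cells (log2 ratio -1.89), and lower in the members in both WT libraries as well.

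Ranked by log2 ratio to the remaining cells, the 15 leading genes (each with a UMI in 25% or more of members) began with the chosen genes Mpo (7.72), Ctsg (6.80) and Elane (6.07), with Prtn3 (4.88) in the fifth place. The other 11 were Nrg2 (5.26), Nkg7 (4.64), BC035044 (4.47), Gria3 (3.99), Muc13 (3.94), Kcnk12 (3.87), Prss57 (3.87), Gfi1, Ms4a3, Cst7 (3.46) and Plppr3 (3.27). Prss57 is a further serine protease of the azurophil granule and lies on chromosome 10 near Elane, Cst7 encodes cystatin F, an inhibitor of cathepsins, and Nkg7 is a granule membrane protein best known from cytotoxic lymphocytes. At the other end of the ranking, over genes with a UMI in 25% or more of the remaining cells, were Cd86 (-5.28), Cd74 (-5.14), Pid1 (-5.13), Clec4n (-4.92), Sirpb1c (-4.91), Plbd1 (-4.86), Fpr1 (-4.85), Sirpb1b (-4.83), Capn2 (-4.79) and Fpr2 (-4.67). These include a costimulatory ligand (Cd86), the invariant chain of MHC class II (Cd74) and the receptors for formylated peptides (Fpr1 and Fpr2), which belong to antigen-presenting and mature phagocytic cells.

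Of 12 factors of granulocytes 8 were above the remaining cells, and the list, led by Cebpb, had a summed log2 of -0.06. Myb was at 52.9 CPM in the members against 6.85 in the remaining cells (log2 ratio 2.95), Cebpa at 59.2 against 13.7 (2.11) and Cebpe, the factor of later granulocytes, at 329.9 against 180.3 (0.87), while Spi1, the gene of PU.1, was at 457 against 475 (-0.06). The 9 monocyte factors of the list used here, such as Zeb2 and Klf4, were all below the remaining cells (log2 of the summed CPM -2.70). Cd34 had 3 UMIs and Flt3 had 2 in all members, so these 2 markers of earlier progenitors were at or near 0. The list of early progenitor genes that holds them, led by Runx1, summed to 551 CPM in the members against 488 (log2 0.17), with 7 of 12 genes compared above the remaining cells, and Kit was at 8.87 CPM against 6.65.

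Cycling and protein-making genes were high in the members. Both groups were also high in the next 10% of cells by score. There the S-phase list stood at 2653 CPM and the G2/M list at 9548, against 3374 and 10410 in the members. Ribosome biogenesis stood at 2552 CPM there, against 4444 in the members and 1588 in all remaining cells. Protein folding in the endoplasmic reticulum stood at 4957 CPM, against 6692 and 3933. All 41 S-phase genes were above the remaining cells (summed 3374 against 1448 CPM, log2 1.22), as were 56 of 57 G2/M genes (log2 0.84), 24 of 25 genes of ribosome biogenesis (1.48) and 19 of 20 genes of protein folding in the endoplasmic reticulum (0.77). Of 20 enzymes of the tricarboxylic acid cycle 17 were above (0.64), and of 12 genes of heme synthesis, which supplies myeloperoxidase, 7 were, led by Alas1, its rate-limiting enzyme, at 329 against 179.5 CPM. In a list of 20 further azurophil-granule genes 14 were above, with a summed level close to that of the remaining cells (log2 0.06).

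Genes of other cell types were for the most part low in the members. Of the 17 specific-granule genes 4 were above the remaining cells and 13 below (summed log2 -0.76). Ltf was at 167 CPM in the members against 1846, Camp at 1247 against 2615, Ngp at 4699 against 8942 and Lcn2 at 1675 against 5998. All 4 were lower in the members. At 5000 UMIs per cell Ltf was found in 27.3% of members and 12.7% of the cells of high macrophage score, Camp in 40.5% and 16.2%, and Ngp in 72.6% and 39.4%. Unthinned, the shares were 57.4% and 29.4% for Ltf, 69.4% and 35.7% for Camp and 94.7% and 69.7% for Ngp. None of the 930 cells with the highest specific-granule score was a member. The macrophage list of 12 genes, of which 11 could be compared and none was above, summed to 57.7 CPM with PBS and 56.2 with ISO (log2 of all members to the remaining cells -3.04), led by Cd68, with C1qa at 3 UMIs in all members. The dendritic list of 15 genes, led by Cd74, summed to 26.8 CPM with PBS and 20.2 with ISO (log2 -4.95), with Cd209a and Siglech at 0. The monocyte list, with 1 of 11 genes compared above the remaining cells and a summed log2 of -0.48, was led by that gene, Ly6c2, at 1487 CPM in the members against 957 in the remaining cells, and 46 members (4.95%) were also among the 10% of cells with the highest monocyte score. In the eosinophil list 5 of 10 genes were at 0, Prg3 among them, in the list for basophils and mast cells 6 of 11, Cpa3 among them, although 3 of the 5 compared were above the remaining cells (Mcpt8, Kit and Ms4a2, with the list at 24.2 against 35.7 CPM), and in the erythroid list 6 of 11, the 4 globin genes among them. The lymphoid list of 12 genes stood higher in the members (log2 2.26), but 75.6% of it was Nkg7, and 6 of its genes, Cd3e among them, were at 0.

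**Figure D2:**
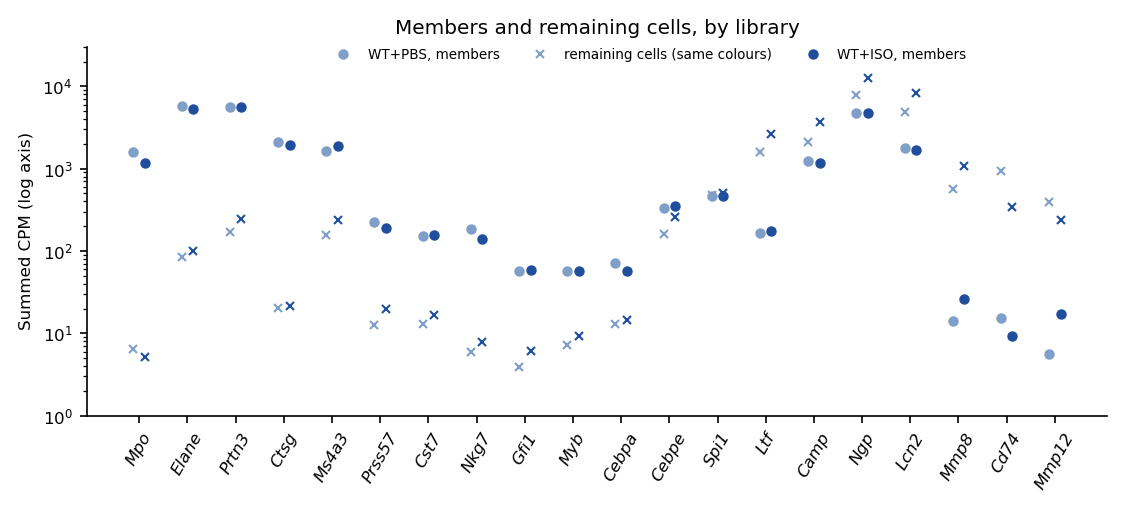
Summed CPM (log axis) of 20 genes in each WT library, with circles for the members, crosses for the remaining cells and a colour for each library. The 4 genes of the score lie far above the remaining cells, Ms4a3 to Cebpa are higher in the members, and Ltf, Mmp8, Cd74 and Mmp12 are lower, in both libraries.

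To see how the members vary among themselves, they were split by score into 4 bands of 232 or 233 cells, with scores of 1.57 to 2.09 in band 1, 2.10 to 2.83 in band 2, 2.84 to 3.64 in band 3 and 3.64 to 4.88 in band 4. Median depth went from 19949 UMIs in band 1 to 26725 in band 4. Mpo was the steepest of the chosen genes, at 46.8, 168, 1004 and 3511 CPM in bands 1 to 4, while Elane was at 1593, 3413, 5954 and 10035. Band 1 thus held Elane, Prtn3 and little Mpo, and band 4 held all 4. Since the bands were cut on these genes, the order of the chosen genes is no finding, and the other genes of the same cells are given as a description.

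Several genes outside the score sorted along it, while Fcnb did not, at 202, 203, 218 and 170 CPM in bands 1 to 4. Srgn, the proteoglycan core to which granule proteases bind, was at 334, 569.5, 1043 and 2121 CPM in bands 1 to 4 (log2 of band 4 over band 1 2.67), Nkg7 at 42.4, 81.8, 156 and 306 (2.85) and Ms4a3 at 1019, 1428, 1849 and 2442 (1.26). Each was higher in band 4 than in band 1 in both WT libraries. In the next 10% of cells below the members Srgn was at 476 CPM, above its level in band 1. The factors Gfi1 (17.4 to 102 CPM), Cebpa (23.2 to 107), Myb (28.1 to 84.0) and Kit, a receptor of early progenitors (4.84 to 16.3), were higher in band 4 than in band 1 in both WT libraries as well, whereas Cebpe went from 346 to 303 and Spi1 from 477 to 439.6. Genes of the endoplasmic reticulum followed, with Calr at 541 CPM in band 1 and 1277 in band 4 and Hspa5 at 416 and 869, both of them chaperones.

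Specific-granule genes ran the other way. Ltf was at 371, 192, 86.8 and 57.6 CPM in bands 1 to 4. Camp was at 2488, 1523, 903 and 353, and Ngp at 8651, 5903, 3847 and 1359. Lcn2, the siderophore-binding lipocalin, went from 3103 to 633. All 4 were lower in band 4 than in band 1 in each WT library. The next 10% of cells below the members continued the order, with 931 CPM of Ltf, 10103 of Ngp and 359 of Elane. Ctsc was lower in the upper bands too, from 249 to 61.7 CPM, as did the proliferation marker Mki67, from 276 to 159.9, although the summed S-phase list stayed between 3307 and 3450.

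**Figure D3:**
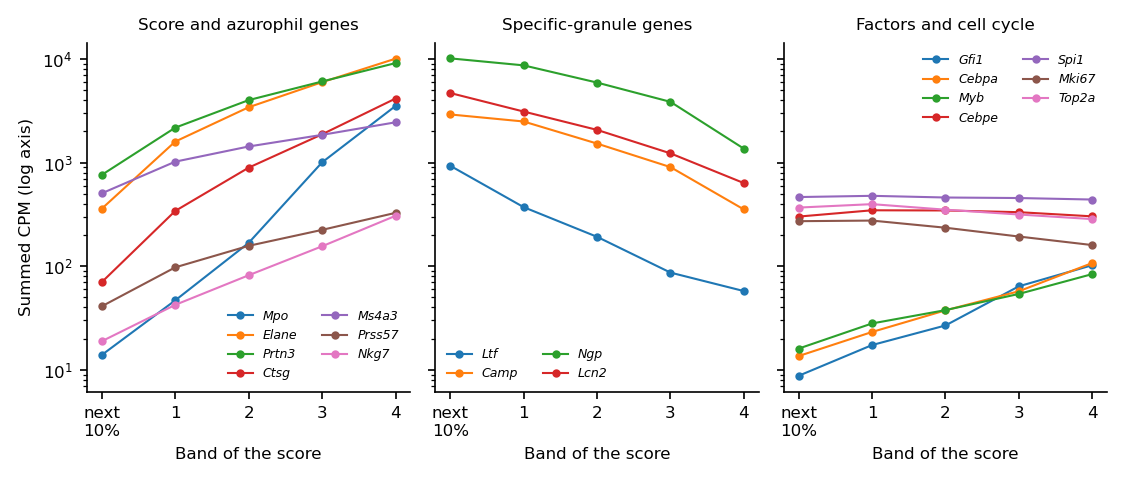
Summed CPM (log axis) of genes of the score and the azurophil granule (left), specific-granule genes (middle) and factors and cell cycle genes (right) in the next 10% of cells below the members and in members of bands 1 to 4, from the lowest to the highest score. Mpo climbs from 46.8 to 3511 CPM between bands 1 and 4, while Ltf, Camp, Ngp and Lcn2 decline.

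Band 4 held 68 of 232 members of WT+PBS and 93 of 367 of WT+ISO, and band 1 held 58 and 94. The levels of the chosen genes within the members are a description, since they picked the cells. Mpo was at 1598 CPM with PBS and 1164 with ISO (log2 ISO over PBS -0.46 [-0.50, -0.42]). Elane was at 5704 CPM with PBS and 5254 with ISO (-0.12), Prtn3 at 5628 CPM with PBS and 5569.6 with ISO (-0.02) and Ctsg at 2079.6 CPM with PBS and 1951 with ISO (-0.09). The Mpo ratio was -0.36 with the bands at equal weights and -0.62 without the 5% of members with the most UMIs. Where the highest 10% of each library were taken as members all 4 turned sign, to 0.08 for Mpo, 0.25 for Elane, 0.28 for Prtn3 and 0.32 for Ctsg. That choice sets a higher cut in WT+ISO, where 10.1% of cells reached a score of 2.45, than in WT+PBS, where 9.95% reached 1.65. It picks the ISO members at higher levels of these same genes, so the turn of sign cannot be read as a result about ISO.

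ISO and PBS were then compared within the WT members, which asks whether the progenitors of the ISO culture differed from those of the PBS culture beyond their number. Genes with at least 100 UMIs over both libraries were compared by the log2 ratio of CPM with an exact binomial interval, and a gene is called higher or lower here where the ratio was at least 1.5-fold and the interval lay on one side of 0. Of 8202 genes 83 (1.01%) were called higher and 71 (0.866%) lower, and the median ratio was 0.03. The 5% and 95% quantiles of the ratio were -0.32 and 0.37. These counts depended on the settings, with 13 higher and 22 lower at a minimum of 300 UMIs. The highest 10% of each library, which has a higher score cut in WT+ISO, gave 165 lower. With the highest 5% of cells as members, 18 of the 83 and 19 of the 71 were also called. The main groups among the named genes were the stefin A family, lower with ISO, genes linked to Nrf2, higher, and genes linked to ATF4, lower. The stefin A and ATF4 lists were put together with these values known, so their counts are a description.

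The stefin A genes, which encode small inhibitors of cysteine cathepsins and lie as a cluster on chromosome 16, were lower in WT+ISO. All 7 that reached 100 UMIs, of a list of 10, were called lower, against 0.866% of all genes. The list summed to 3125 CPM with PBS and 1539 with ISO (log2 ratio -1.02 [-1.05, -0.99]). Stfa1 was at 780.2 CPM with PBS and 316 with ISO (-1.30 [-1.37, -1.24]). Cstdc5 was at 995 CPM with PBS and 439 with ISO (-1.18 [-1.24, -1.12]). Cstdc4, the gene of the family with most UMIs, was at 1039 CPM with PBS and 619 with ISO (-0.75 [-0.80, -0.69]). All 3 were lower with ISO by more than 1.5-fold. Stfa2 (-1.39 [-1.71, -1.08]) and Stfa3 (-1.23 [-1.63, -0.84]) were lower as well, at 40.0 and 15.2 CPM and at 23.4 and 9.97 in WT+PBS and WT+ISO, as were Csta2 (-0.87) and Stfa2l1 (-0.83). Stfa3 lost its call with the highest 20% of cells (-0.40) and Csta2 with the highest 5% (-0.50). This list was put together after the values had been seen. The genes are close copies of each other, so that counts may be split between them. They are also genes of later neutrophils, found at 7001 and 3937 CPM in the remaining cells of WT+PBS and WT+ISO (-0.83), where the direction was the same. Few members carried most of some of them, with 50.4% of the Stfa2 UMIs of WT+PBS in 3 cells. Leaving out, for each gene, the 3 members of each library with most UMIs gave -1.35 for Stfa1, -1.23 for Cstdc5, -1.12 for Stfa2 and -0.69 for Stfa3. That step kept the library totals and took 3 cells from 232 members with PBS and from 367 with ISO. It raised the median ratio over all genes from 0.03 to 0.07, so part of a rise can come from the step itself. Other ratios given without leading members share this shift.

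Nrf2 is the transcription factor that drives antioxidant and iron-handling genes. Of 25 genes in its list 21 reached 100 UMIs in the WT members, and 19 had a ratio above 0. Of the 21, 5 were called higher, against 1.01% of all genes, and none lower, with a median of 0.35 against 0.03 over all genes. The list summed to 12361 CPM with PBS and 16139 with ISO (0.38 [0.37, 0.40]), and Ftl1, the light chain of ferritin, made up 54.6% of it. Gclm, a subunit of the rate-limiting enzyme of glutathione synthesis, was at 188 CPM with PBS and 307 with ISO (0.71 [0.60, 0.81]), and was found in 94.0% of the members of WT+PBS and 97.3% of those of WT+ISO. Slc7a11, the cystine transporter, was at 27.7 CPM with PBS and 48.3 with ISO (0.80 [0.54, 1.07]). Both genes were called higher. Blvrb, biliverdin reductase B, was called at 0.61 [0.33, 0.90], Srxn1, sulfiredoxin, at 0.83 [0.25, 1.45] and Osgin1 at 0.90 [0.28, 1.56]. With the highest 20% of cells as members Slc7a11 (0.53), Blvrb (0.37) and Srxn1 (0.57) lost their calls, as did Slc7a11 with the highest 5% (0.50) and Blvrb with the highest 10% of each library (0.41) and with median-of-ratios scaling (0.58). Hmox1, heme oxygenase 1, was at 12.1 CPM with PBS and 14.2 with ISO (0.22 [-0.21, 0.67]) and was not called. Nqo1 had only 13 UMIs in the members of WT+PBS and 50 in those of the ISO library, too few for a call. In the remaining cells the list had a WT ratio of 0.29 and Gclm one of 1.08, so the direction was not particular to the members.

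Nrf2 binds antioxidant response elements, for which the letters TGACNNNGC were searched on both strands. RefSeq gave 27 promoters for 20 of the list genes, and 5 of the 27, each of another gene, held a match, as did 10.2% of all promoters. The match of Gclm, the called gene that has one, is shown with 8 bases on either side, the matched letters in capitals as their reverse complement, from chr3:122245415-122245439 (GRCm38.p6, plus strand).
Gclm: tcccgggcGCACCGTCAactctcac

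Genes linked to ATF4, the factor that answers amino acid shortage and stress of the endoplasmic reticulum, made up the third group, a list put together after the values had been seen. In the WT members 7 of its 18 genes with enough UMIs were called lower with ISO and none higher (median -0.48). Over all genes 0.866% were called lower, and the median was 0.03. Since the list was chosen with the values known, its count is a description. The list summed to 1328 CPM with PBS and 1121 with ISO (-0.24 [-0.29, -0.20]). Asns, asparagine synthetase, was at 109 CPM with PBS and 62.6 with ISO (-0.80 [-0.97, -0.64]), found in 78.9% and 69.2% of members of the WT libraries. Cth, which makes cysteine from cystathionine, was at 11.96 CPM with PBS and 4.18 with ISO (-1.52 [-2.12, -0.93]), and Chac1, an enzyme that degrades glutathione, at 13.9 CPM with PBS and 6.65 with ISO (-1.07 [-1.57, -0.57]). All 3 were called lower. Trib3 (-0.79), Stc2 (-0.99), Ddit4 (-0.62) and Atf5 (-0.63) completed the 7. Without the 3 leading members of each library Ddit4 was at -0.51 [-1.10, 0.07], no longer called, nor was it with the highest 10% of each library (-0.45), and Atf5 lost its call under 4 alternatives besides the 2-fold one (-0.58 to -0.45). In the remaining WT cells the list had a ratio of -0.19, near that of the members. Phgdh, the entry enzyme of serine synthesis and the gene of the list with most UMIs, was at 411 CPM in WT+PBS and 416 in WT+ISO (0.02).

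**Figure D4:**
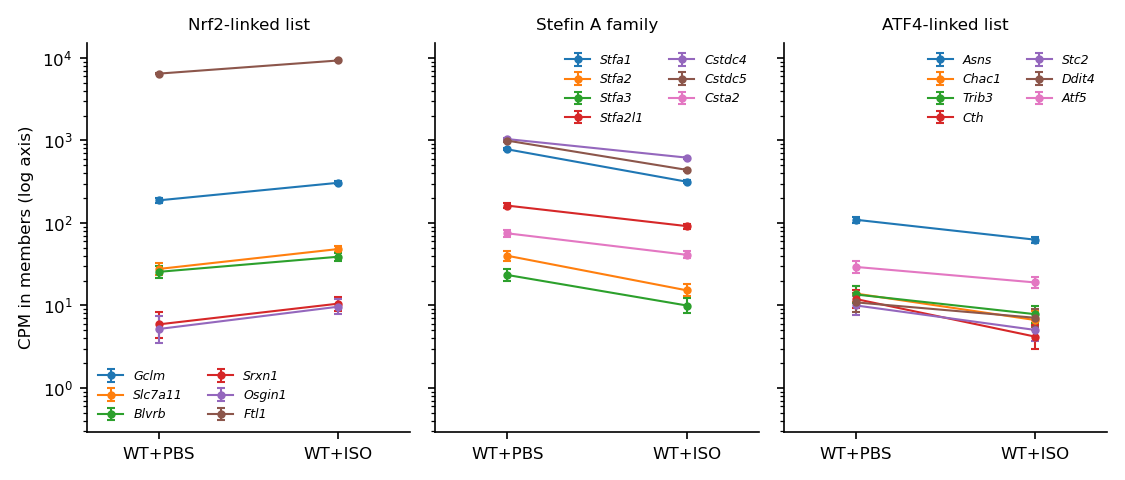
CPM in the members (log axis) of genes of the Nrf2-linked list (left), the stefin A family (middle) and the ATF4-linked list (right) in WT+PBS and WT+ISO, with Poisson 95% intervals of counting error and a line for each gene. The left panel climbs from PBS to ISO, and the other panels decline.

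By the rule of size the 10 highest called genes of the WT comparison were Mmp12 (1.61), Hnmt (1.26), 1110051M20Rik (1.22), Vps33b (1.08), Car2 (1.02), Gstm5 (1.02), Gatc (0.98), As3mt (0.96), Serpina3g (0.95) and Ccl9 (0.94). Hnmt, which methylates histamine, was at 5.18 CPM with PBS and 12.4 with ISO, and Car2, carbonic anhydrase 2, at 10.2 CPM with PBS and 20.7 with ISO. In the remaining WT cells their ratios were 0.65 and -0.45. Mmp12, the macrophage elastase, rested on few cells. It was at 5.53 CPM with PBS and 16.9 with ISO, 68.4% of its UMIs in WT+ISO came from 3 members, and without the 3 leading members of each library the ratio was 0.26 [-0.46, 1.02], no longer called. With the highest 20% of cells as members Mmp12 and Ccl9 reversed (-0.68 and -0.30), and 1110051M20Rik lost its call (0.48).

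The 10 lowest called genes were Cth, Stfa2, Stfa1, Stfa3, Cstdc5, Far2 (-1.10), Hsd17b1 (-1.10), Rnf144a (-1.08), Chac1 and Ankrd37 (-1.03). Far2, a fatty acyl-CoA reductase, was at 19.1 CPM with PBS and 8.90 with ISO and stood 2.76 above the remaining cells on the log2 scale. Hsd17b1, a steroid dehydrogenase, was at 10.4 CPM with PBS and 4.83 with ISO. In the remaining WT cells their ratios were 0.23 and -2.90. Rnf144a, a ubiquitin ligase, was at 13.6 CPM with PBS and 6.43 with ISO, and Ankrd37 at 13.7 CPM with PBS and 6.76 with ISO. Rnf144a lost its call with the highest 20% of cells (-0.51).

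Another 4 called genes were picked after their values in all 4 libraries had been seen. Acpp, an acid phosphatase, was at 29.8 CPM with PBS and 52.2 with ISO and was called higher (0.81 [0.55, 1.07]). Gria3, a subunit of glutamate receptors that is high in the members against the remaining cells, was at 76.6 CPM with PBS and 46.9 with ISO and was called lower (-0.71 [-0.90, -0.51]). Mmp8, a collagenase of the specific granule, was at 13.9 CPM with PBS and 26.2 with ISO and was called higher (0.91 [0.54, 1.30]), with 39.7% and 46.7% of its UMIs in 3 members, and without the 3 leading members of each library its ratio was 0.73. Cd74 was at 15.5 CPM with PBS and 9.22 with ISO and was called lower (-0.75 [-1.20, -0.31]), and in the same step its ratio was -0.64. Mmp8 lost its call with the highest 20% of cells (0.31), and Cd74 with the highest 5% (-0.40) and the highest 10% of each library (-0.45).

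**Figure D5:**
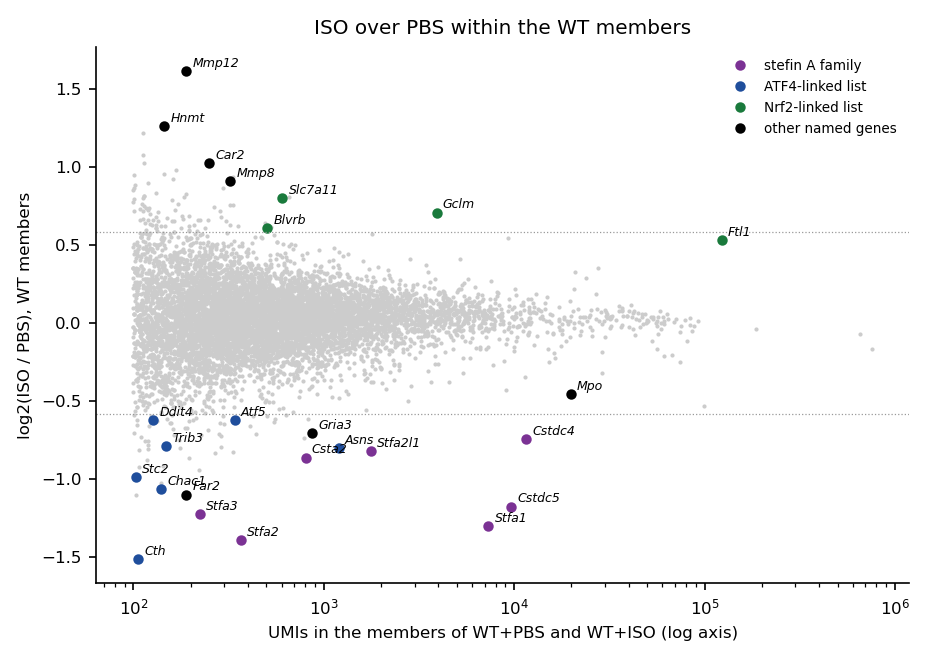
Log2 ratio of ISO over PBS within the WT members (y axis) against the UMIs of the gene over both libraries (x axis, log), for 8202 genes with at least 100 UMIs (grey), with named genes in colour and dotted lines at 1.5-fold. Most genes lie between the dotted lines, and the spread narrows with more UMIs. Stfa1, Cstdc5 and Cstdc4 lie below the lines and Gclm above them.

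Most other lists held few called genes or none. Since 1.01% of all genes were called higher and 0.866% lower, a list of this size without a call is near the background. Of the 41 S-phase and 57 G2/M genes none was called, and the summed ratios were -0.01 [-0.04, 0.01] and -0.02 [-0.03, -0.00]. Among genes known to answer CREB none of 11 was called (-0.10 [-0.17, -0.04]), and among pro-apoptotic genes none of 17 (0.12 [0.08, 0.17]). In the anti-apoptotic BCL2 list Bcl2a1a was called lower (-0.62 [-0.82, -0.42]), but not with the highest 20% of cells (-0.43). The tricarboxylic acid cycle had 0.06 [0.02, 0.09], with none of 19 called, and ribosome biogenesis 0.09 [0.07, 0.11], with none of 25 called and 22 above 0. The further lists of granule protein processing, heme synthesis, early progenitor genes, MDSC effector genes, JAK and STAT signalling, immediate stress genes and endoplasmic reticulum folding held no called gene.

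Granule and lineage genes gave a few calls. None of 20 further azurophil-granule genes was called (-0.03 [-0.05, -0.01]), nor any of the factors of granulocytes. The specific-granule list was at -0.22 [-0.23, -0.21] in the members but 0.57 in the remaining WT cells, with Mmp8 called higher and Abcg1 lower. Chil3, a chitinase-like protein, made up 37.9% of the list and had -0.53, while Ngp had 0.02, Camp -0.07 and Ltf 0.08, and the median of the list was -0.04. With the highest 20% of cells as members the summed ratio was 0.05. Csf3r, the receptor of the granulocyte growth factor G-CSF, was at 47.3 CPM with PBS and 30.8 with ISO and was called lower (-0.62 [-0.87, -0.37]), as were Ccr2 (-0.83 [-1.15, -0.51]) and F13a1 (-0.78 [-0.95, -0.62]) of the monocyte list. Csf3r lost its call where other shares of cells were taken as members (-0.54 to -0.50), and F13a1 with the highest 5% of cells (-0.25) and without the 5% of members with the most UMIs (-0.45). The list of mature neutrophil genes, with 1 of 20 above the remaining cells, was at -0.12 [-0.13, -0.12] in the members against 0.33 in the remaining WT cells, with Csf3r, Stfa2 and Stfa2l1 called lower of 12. The interferon list had a ratio of 0.47 [0.42, 0.53]. Ifitm3 made up 81.0% of it, at 485 CPM with PBS and 707 with ISO, and none of its 3 genes with enough UMIs was called. Without the 3 leading members of each library Ifitm3 was at 0.67 [0.60, 0.74], past 1.5-fold, in a step that raised the median of all genes to 0.07. The summed ratio of the list was 0.82 with the highest 5% of cells and 0.13 with the highest 20%. Among markers of sex, Xist was at 451 CPM with PBS and 404 with ISO, and of the Y-linked genes Ddx3y had 0 and 3 UMIs and Kdm5d, Eif2s3y and Uty had 0 in both libraries. Nnt, whose loss marks the C57BL/6J strain, had 10 and 19 UMIs.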

How the data were processed

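Single-cell RNA libraries of sorted CD11b+ cells from 4 cultures, pooled here to choose the members, were sequenced by droplet capture with multiplexing tags, 1 library per group. The authors deposited filtered matrices of counts (UMIs per gene and barcode, with no normalization) for each sample. The submitters' processing notes name Cell Ranger 6.0.0, Seurat and build mm10, and the file header names Cell Ranger 7.0.0. How empty droplets and doublets were removed before deposit is not given in the sources used here, and no doublet caller was run. Sequences and positions are from RefSeq tables of GRCm38.p6, the same assembly as mm10.

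Barcodes needed 200 genes or more and no more than 10% of UMIs from mitochondrial genes, which left 9303 of 9525. The matrices list 32285 genes. The kept cells of WT+PBS and WT+ISO held 24393687 and 29400468 UMIs and their members 5601059 and 9326097, so 3 counts correspond to 0.536 and 0.322 CPM. Results by library beyond these are not reported here. UMIs were summed over the members of a library and scaled to CPM. Ratios have exact conditional binomial intervals, CPM exact Poisson intervals and shares exact Clopper-Pearson intervals, at 95%. Genes with at least 100 UMIs over the 2 libraries compared were called at 1.5-fold or more with an interval on one side of 0. Because cells are not replicates, no p-value was computed. The genes named are the 4 genes of the score, sex and strain genes, the 10 highest and 10 lowest called genes of the ISO comparison found in at least 5% of the members of the higher library, and for members against remaining cells the 15 highest and 10 lowest genes found in at least 25% of either. Called and other members of lists, band genes and 4 further called genes were named after their values had been seen. The members, the 32 gene lists and the rules were chosen with earlier results of these data known. The stefin A and ATF4 response lists and a list of neighbouring protease genes were added after values had been seen. Alternatives changed the share of cells taken, filters, scaling, weights, depth and leading cells. Members with the most UMIs or a high macrophage score were left out in turn, in place of a doublet call. No WT member was among the cells of high macrophage score. That step therefore could not change the WT values and says nothing about doublets among them. The ratio step was tested on simulated data. Counts of 12 multiplexing tags were used only for the tag shares given as an observation. Tools were Python 3.11.15, numpy 2.4.6, scipy 1.17.1, pandas 2.3.3 and matplotlib 3.10.9.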

Additional observations from a re-analysis of the deposited data

Results flagged for a closer look

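The multiplexing tags, which the comparison does not use, showed tags of the other 3 libraries at 2.93% of the tag UMIs of WT+ISO and 4.61% of those of WT+PBS. Tags that marked none of the 4 libraries made up 0.00632% and 0.000946%.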

How the results depend on the processing

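With ISO the WT share of members exceeded that with PBS under every alternative run (log2 ratio 0.37 to 0.67). None of these took only the highest scores. At or above a score of 4 the order was the other way (2.08% of WT+PBS and 1.81% of WT+ISO), and at or above 4.45 it was back (0.136% and 0.177%). These shares rest on few cells and no interval was computed for them, so they set no order among the highest scores. Taking the highest 5% of cells gave shares of 5.38% with PBS and 8.08% with ISO, taking the highest 20% gave 19.6% and 28.2%, both by construction, and keeping cells with at least 5000 UMIs gave 15.5% and 20.02% (ratio 0.37). The 5000 UMI limit, leaving out cells of high macrophage score for the shares and leaving out leading members were chosen after seeing the data. Called genes numbered 13 higher and 22 lower at a minimum of 300 UMIs, 139 and 134 at 50 UMIs, and 6 and 10 at 2-fold. The highest 20% of cells gave 157 lower. The highest 10% of each library, with a higher score cut in WT+ISO, gave 165 lower. Leaving out the 3 leading members of each gene gave 136 higher and 54 lower, with a median ratio of 0.07 against 0.03 in the main setting. With the highest 20% of cells 32 of the 83 higher and 38 of the 71 lower genes were shared, and with the highest 5% 18 and 19.

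Among the called genes named, directions reversed with the highest 20% of cells for Ccl9 (-0.30) and Mmp12 (-0.68). The cause was not tested. Of 591 comparisons of 44 gene results with an alternative 539 kept their side of the call, 49 lost it (24 of these at 2-fold), 1 gained it and 2 reversed, and of 490 for 35 list results 486 kept their side, 1 lost the call and 3 gained it. Uncalled ratios also turned sign, in 7 comparisons for the 4 genes of the score and in 27 for 17 lists. Among them were the specific-granule list (0.05) and the mature neutrophil list (0.02) with the highest 20% of cells. The 4 score genes summed (0.26) turned with the highest 10% of each library, a choice that sets a higher score cut in WT+ISO. The macrophage-score step is among the comparisons counted, although it left the WT members unchanged. The summed list ratios were 0.27 to 0.43 for Nrf2, -1.50 to -0.82 for stefin A and -0.27 to -0.16 for ATF4. No paired analysis was possible because every condition is a single library with replicate number 1, and for the same reason no replicate could be left out. Apart from the counts at a minimum of 50 UMIs and values without leading members, no single gene under 100 UMIs was compared between ISO and PBS.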
